A study of Mus musculus with 4 samples.

Results

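Transcripts of 9 receptors that position B cells in the germinal center (GC) or govern their exit were followed in antigen-specific B cells: *Cxcr4*, *Cxcr5*, *Cxcr3*, *Ccr6*, *Ccr7*, *S1pr1*, *S1pr2*, *S1pr4* and *Gpr183*. The genes were chosen by name, 9 of the 32285 genes in each mRNA matrix, and all 9 had transcripts in both. The cells came from the spleens of 6 mice on day 8 after sheep red blood cells coupled to hen egg lysozyme (HEL) were given. The recipients were CD45.1+ wild-type mice, 8 to 12 weeks of age, and each had received a mixture of MD4 B cells, whose transgenic antigen receptor binds HEL. The CD45.1+ cells of every mixture were Dock8 wt/wt. A BCL2 transgene directed to B cells (BCL2.Tg) was present in the CD45.2+ cells in addition, which were Dock8 wt/wt in 3 recipients and Dock8 cpm/cpm in 3. The cpm allele is an ENU-induced mutation that the study treats as DOCK8-null. HEL+CD95+ cells of all recipients were labeled with hashtag antibodies, pooled and sorted into a CD45.1+ and a CD45.2+ library, so sort, library and BCL2 transgene go together and cannot be told apart.

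CXCR4 and CXCR5 sort GC B cells between zones: CXCL12 in the dark zone (DZ) attracts cells through CXCR4, and CXCL13 in the light zone (LZ) and follicle through CXCR5. S1PR2 confines cells to the GC by restraining their movement toward sphingosine-1-phosphate, whereas S1PR1 draws lymphocytes toward that lipid and out of the tissue. GPR183 (EBI2) guides B cells by oxysterols to the outer follicle and is low in GC cells, CCR7 guides them to the T cell zone, CCR6 marks naive and memory B cells, and CXCR3 is borne by subsets of memory B cells and plasma cells (PCs).

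The 9 genes lie apart in the mouse genome (GRCm38, annotation GENCODE M21), and all are protein coding. *Cxcr4* is at chr1:128588199-128592293, *S1pr1* at chr3:115710433-115715072 and *Cxcr3* at chrX:101731535-101734269, all on the minus strand. *S1pr2* (chr9:20962361-20976781) and *Cxcr5* (chr9:44511787-44561877) share a chromosome and also the minus strand. *S1pr4* (chr10:81497747-81500132), *Ccr7* (chr11:99144196-99155077) and *Gpr183* (chr14:121952551-121965195) are on the minus strand, and *Ccr6* (chr17:8236043-8257141) is on the plus strand. *Cxcr5* overlaps *Bcl9l*, and *Gpr183* overlaps *Ubac2*, both on the opposite strand, so those 2 counts depend on the strand setting of the counting. RefSeq promoter sequences (GRCm38.p6) of 250 bases before the start matched 6 of the 9 genes, *Cxcr4*, *Cxcr3*, *Ccr6* (with 2 starts), *S1pr2*, *S1pr4* and *Gpr183*. They are shown for 3 receptors with different patterns, *Cxcr4* highest in the DZ, *S1pr2* high in the DZ and the LZ, and *S1pr4* highest outside both. Capitals mark the KLF motif CACCC and the E-box CAGGTG, read on both strands, which do not overlap in these windows.
Cxcr4, chr1:128592300-128592549, minus strand: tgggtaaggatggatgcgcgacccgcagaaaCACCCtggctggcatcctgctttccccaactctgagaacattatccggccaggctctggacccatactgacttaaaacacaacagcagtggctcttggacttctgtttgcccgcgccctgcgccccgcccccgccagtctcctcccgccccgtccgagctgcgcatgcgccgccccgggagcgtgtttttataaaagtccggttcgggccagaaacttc
S1pr2, chr9:20976794-20977043, minus strand: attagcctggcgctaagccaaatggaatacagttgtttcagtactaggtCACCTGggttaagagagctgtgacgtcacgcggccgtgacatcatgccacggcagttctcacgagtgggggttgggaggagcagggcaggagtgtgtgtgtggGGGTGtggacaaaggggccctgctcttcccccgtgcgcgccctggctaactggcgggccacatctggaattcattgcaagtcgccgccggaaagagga
S1pr4, chr10:81500138-81500387, minus strand: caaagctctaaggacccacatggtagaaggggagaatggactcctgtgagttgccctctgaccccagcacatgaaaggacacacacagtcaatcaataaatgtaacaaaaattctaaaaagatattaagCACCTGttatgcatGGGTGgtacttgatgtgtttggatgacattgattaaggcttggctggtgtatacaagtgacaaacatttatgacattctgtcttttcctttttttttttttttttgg
The KLF letters lie 219 to 215 bases before the *Cxcr4* start, 98 to 94 before the *S1pr2* start and 107 to 103 before the *S1pr4* start. The E-box lies 201 to 196 bases before the start of *S1pr2* and 121 to 116 before that of *S1pr4*. Among 32851 RefSeq promoter windows of this length, 52.0% held the KLF letters and 17.2% the E-box, so the matches are a description only. The FOXO letters GTAAACA (3.17% of windows) were in none of the 7 windows of these receptors. An NF-kB motif (17.6%), the octamer ATGCAAAT (1.6%), CCAAT (33.8%) and TATAAA (12.4%) were also searched on both strands, and of these only TATAAA occurred in the 3 windows shown, in that of *Cxcr4*, where its matches on the 2 strands overlap.

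After hashtag assignment to a single mouse and the cell filter, 6488 CD45.2+ and 3204 CD45.1+ cells were kept. The CD45.2+ library gave 2007, 2607 and 1672 cells of the Dock8 wt/wt recipients but only 57, 44 and 101 of the Dock8 cpm/cpm recipients, and the CD45.1+ library 339 to 947 cells per recipient. The unique molecular identifiers (UMIs) behind a mouse ranged from 14589433 to 18036775 for CD45.2+ Dock8 wt/wt, from 342465 to 700331 for Dock8 cpm/cpm and from 2365275 to 7020373 for CD45.1+ cells. The mouse was the replicate throughout. Levels are in CPM, the UMIs of a gene over all UMIs of a mouse's cells of that kind, scaled to a common total, comparable between cells for a gene but not between genes, and fewer transcripts per cell cannot be told apart from fewer cells with transcripts. 38 barcodes occurred in both libraries. *Dock8* transcripts did not separate the groups (log2 difference -0.31, SE 0.21, edgeR adjusted p = 0.947) in CD45.2+ LZ and DZ cells of Dock8 cpm/cpm against wt/wt recipients, so they give no check of the labels.

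Clustering without the 9 genes gave 16 clusters, named from the study's marker lists, which had been drawn from these same cells. Of these, the LZ class was the LZ2-like cluster (1538 cells), whose markers were close to LZ4, and the DZ class joined the DZ1-, DZ2- and DZ3-like clusters (763, 854 and 335 cells). The early, activated and memory-like class (EAM) joined the EarlyGC1-, EarlyGC2-, Activated/Memory- and Activated2-like clusters (1289, 418, 1591 and 86 cells), and the PC class joined the PC and cycling plasmablast-like clusters. The LZ1-like cluster (339 cells) was kept apart. *Cd79a*, *Cd79b*, *Ms4a1* and *Pax5* were detected in the LZ, DZ, EAM and PC cells of every mouse with at least 10 such cells, and 5 T cell markers together averaged at most 10.7 CPM in these classes against 3442 and 4913 in the T cell-like cluster. The cluster nearest to the LZtoPrePC/Memory list (214 cells) had a median of 1749 UMIs per cell, 0.27 of its libraries' median, and 5.85% mitochondrial counts. This cluster, which held the highest *Cxcr5*, *Ccr6* and *S1pr1* levels of CD45.2+ cells, enters no class.

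**Figure D1:**
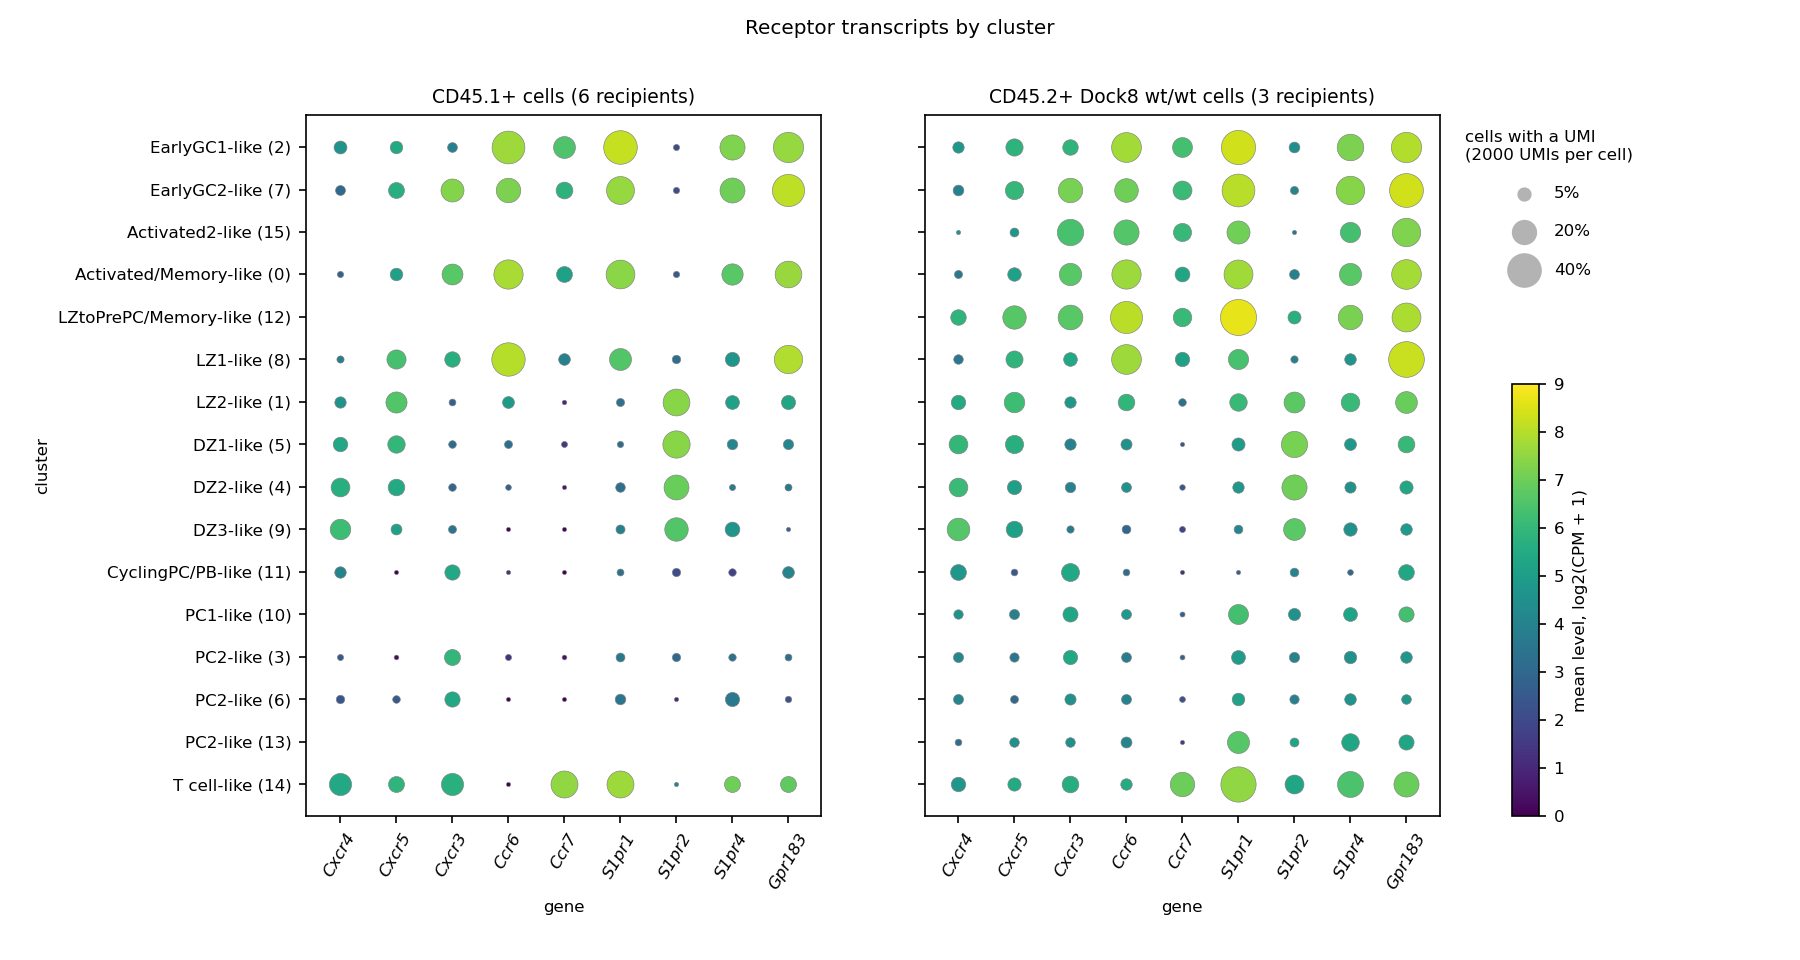
Level of each receptor (columns) in each cluster (rows, cluster number in brackets) as the mean over mice with at least 10 cells, for CD45.1+ cells of 6 recipients and CD45.2+ Dock8 wt/wt cells of 3. Color gives the mean on a log2(CPM + 1) scale and dot area the share of cells with a UMI after thinning every cell to 2000 UMIs, and rows without dots had too few cells. *S1pr2* is high in the LZ2- and DZ-like rows, and *S1pr1*, *Ccr7* and *S1pr4* in the EarlyGC rows.

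The receptors fell into a few patterns over the clusters. *Cxcr4* and *S1pr2* were high in the DZ-like clusters. *Cxcr5* was highest in the LZ2-like cluster of CD45.1+ cells and, in CD45.2+ cells, in the low-UMI cluster that enters no class. *Ccr6*, *Ccr7*, *S1pr1*, *S1pr4*, *Gpr183* and *Cxcr3* peaked outside the LZ2- and DZ-like clusters. *Ccr6* peaked in the LZ1-like cluster of CD45.1+ cells, and *Ccr6* and *S1pr1* in the low-UMI cluster of CD45.2+ cells. Across 30 cluster profiles of at least 20 cells, the closest pair was *S1pr1* and *S1pr4* (Pearson r = 0.93), followed by *Ccr6* and *Gpr183* (r = 0.91) and *Ccr7* and *S1pr1* (r = 0.88). *Cxcr4* and *S1pr2* had r = 0.77, and *Cxcr3* ran opposite to *S1pr2* with r = -0.72. These profiles share libraries, mice and depth, so the coefficients are descriptions.

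Between classes, most receptors differed by the quasi-likelihood test of edgeR with mouse as block, as did many genes. From LZ to DZ in CD45.1+ cells, 1 of the 9 receptors was higher and 5 were lower, where 43.7% of 7695 genes were called, 22.3% higher and 21.3% lower. In CD45.2+ Dock8 wt/wt cells 1 was higher and 6 were lower, with 33.2% of 10767 genes called, 19.1% higher and 14.1% lower. From LZ to EAM, 6 were higher and 3 lower in CD45.1+ cells (35.3% of genes called, 18.8% higher and 16.5% lower), and 6 higher and 2 lower in CD45.2+ cells (22.7%, 12.3% and 10.4%). From LZ to PC, 2 were higher and 6 lower in CD45.1+ cells (64.5%, 31.8% and 32.7%), and 1 higher and 5 lower in CD45.2+ cells (43.1%, 22.2% and 20.9%). The classes were drawn from the same cells with genes that vary beside these, so the tests describe how far classes stand apart and are not independent of the clustering. Scaling also matters for PCs: without TMM factors, the median gene moved from LZ to PC by -0.90 on the log2 scale in CD45.1+ cells and by -0.75 in CD45.2+ cells, and from LZ to EAM by -0.35 and -0.21.

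**Figure D2:**
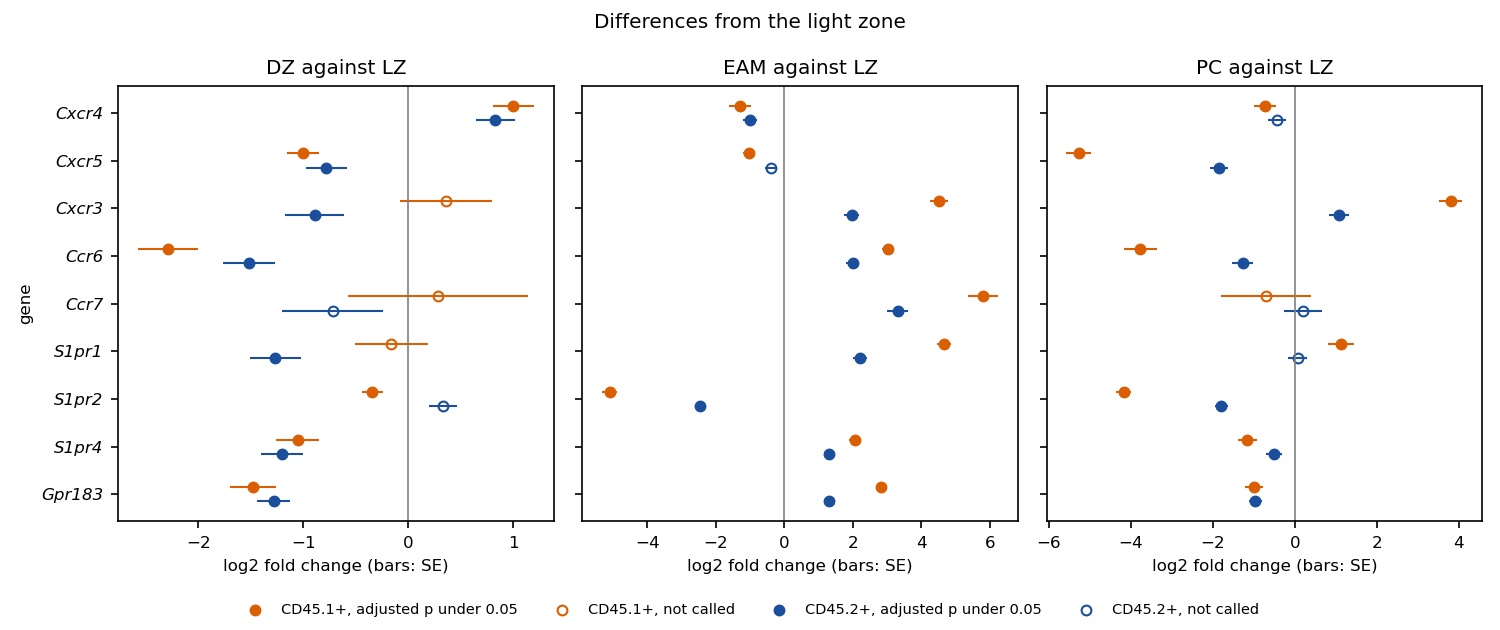
Log2 fold change of each receptor in DZ, EAM and PC cells against LZ cells, with bars for the SE, in CD45.1+ cells (6 recipients) and CD45.2+ Dock8 wt/wt cells (3 recipients). Filled points passed an adjusted p of 0.05. *Cxcr4* lies to the right of 0 in DZ cells of both sorts, and *S1pr2* lies furthest to the left in EAM cells, at -5.09 and -2.45.

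*Cxcr4*, the receptor for CXCL12, was the only one of the 9 called higher in DZ than in LZ cells, and it was so in both sorts. In CD45.1+ cells its level in the 6 recipients was lowest at 37.8, median 49.4 and highest 63.7 CPM in DZ cells, against 8.03, 23.0 and 36.1 CPM in LZ cells. The ranges did not overlap, and the log2 fold change was 1.004 (SE 0.20, adjusted p = 2.00e-05). In CD45.2+ Dock8 wt/wt cells the 3 recipients had 65.1, 83.9 and 65.5 CPM in the DZ and 39.6, 43.5 and 46.1 CPM in the LZ, a difference of 0.83 on the log2 scale (SE 0.19, adjusted p = 7.93e-04). Without wt replicate 2 that call was lost (0.65, adjusted p = 0.0592). Within the DZ, *Cxcr4* was highest in the DZ3-like cluster of mitotic cells, led by *Cdc20* and *Ccnb1*, with 70.3 ± 25.0 CPM (SD, n = 6) in CD45.1+ and 94.9 ± 24.2 CPM (n = 3) in CD45.2+ cells. The DZ2- and DZ1-like clusters followed at 50.7 ± 10.1 and 41.4 ± 15.99 CPM in CD45.1+ cells and at 68.2 ± 11.95 and 61.0 ± 3.32 CPM in CD45.2+ cells, and these neighbors lay within each other's spread. EAM cells were lower than LZ cells, by -1.30 (SE 0.32, adjusted p = 7.04e-04) in CD45.1+ and by -1.01 (SE 0.21, adjusted p = 7.41e-04) in CD45.2+ cells. PCs had 7.89 ± 1.94 CPM in CD45.1+ recipients, -0.73 against LZ cells (SE 0.27, adjusted p = 0.0162), a call lost without cpm replicate 3 (adjusted p = 0.13) and without wt replicate 2 (adjusted p = 0.0573), and 19.4 ± 4.36 CPM in CD45.2+ recipients (-0.43, adjusted p = 0.112). The PC against LZ value depended on the processing. Over the main fit and its alternatives it ran from -1.58 to -0.28 in CD45.1+ cells (called in 15 of 19) and from -1.15 to -0.26 in CD45.2+ cells (called in 4 of 16).

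*Cxcr5*, the receptor for CXCL13, ran the other way across the zones. CD45.1+ LZ cells ranged from 50.9 to 124 CPM with a median of 105, and DZ cells from 40.4 to 71.1 CPM with a median of 45.3. The ranges overlapped, but the within-mouse log2 fold change of DZ against LZ was -1.001 (SE 0.15, adjusted p = 7.54e-08). In CD45.2+ cells the LZ values were 64.3, 62.7 and 86.9 CPM and the DZ values 35.6, 36.8 and 41.3 CPM (log2 fold change -0.78, SE 0.19, adjusted p = 0.00228), without overlap. PCs had nearly no *Cxcr5* in CD45.1+ recipients, at most 3.78 CPM. In CD45.2+ PCs it stood at 14.4, 14.9 and 5.47 CPM, so that the log2 fold change of PC against LZ was -5.27 (SE 0.30, adjusted p = 5.12e-24) in CD45.1+ but -1.84 (SE 0.23, adjusted p = 8.82e-08) in CD45.2+ cells. The test of that difference between sorts, made in the 3 recipients of Dock8 wt/wt cells after the values had been seen, gave 3.21 (CD45.2+ minus CD45.1+, adjusted p = 1.18e-04), where 8.58% of 9542 genes were called. B cell transcripts moved with it: over all PCs of a sort, *Cd79a*, *Cd79b*, *Ms4a1* and *Pax5* were at 2587, 823, 296 and 38.1 CPM in CD45.2+ and 857, 513, 53.5 and 1.504 CPM in CD45.1+ cells, and their part in the difference was not tested.

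*S1pr2*, the receptor that holds B cells in the GC, marked the LZ and DZ classes alike, but not the LZ1-like cluster that was kept apart. That cluster had 8.46 ± 10.2 CPM in CD45.1+ (SD, n = 4) and 13.5 ± 1.18 CPM in CD45.2+ Dock8 wt/wt cells (n = 3). CD45.1+ LZ cells had 139, 171 and 203 CPM and DZ cells 129, 133 and 149 CPM (lowest, median and highest of 6), whereas EAM cells had 2.30, 4.10 and 6.17 CPM and PCs 2.90, 5.02 and 9.63 CPM. The LZ and DZ classes were thus far from EAM cells and PCs in every recipient. EAM lay below LZ at -5.09 (SE 0.22, adjusted p = 2.41e-28) and PC below LZ at -4.16 (SE 0.18, adjusted p = 1.92e-29) on the log2 scale. In CD45.2+ cells the levels were 86.6, 103 and 129 CPM in the LZ, 122, 130 and 127 in the DZ, 16.1, 19.5 and 13.1 in EAM cells and 22.6, 18.1 and 15.5 in PCs. The corresponding differences were smaller, -2.45 (SE 0.16, adjusted p = 1.83e-12) for EAM and -1.79 (SE 0.16, adjusted p = 1.83e-10) for PCs. The difference between sorts passed the test in both cases, at 2.79 (adjusted p = 2.03e-04) for EAM, where 0.608% of genes were called, and at 2.58 (adjusted p = 6.13e-07) for PCs. Other GC transcripts moved with it. Over all EAM cells of a sort, *Bcl6*, the transcription factor that defines GC B cells, was at 26.2 CPM in CD45.2+ and 9.32 in CD45.1+ cells, and *Mef2b*, *Efnb1* and *Fas* were at 13.7, 6.81 and 30.03 against 2.93, 2.13 and 23.7 CPM. In PCs *Bcl6* was at 14.3 against 0.547 CPM and *Mef2b*, *Efnb1* and *Fas* at 27.97, 5.93 and 18.2 against 11.3, 0.410 and 8.20 CPM. All 4 were thus higher in the CD45.2+ cells of both classes, and none was at 0. Their part in the result was not tested.

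Between the zones, *S1pr2* changed little and not in the same direction in both sorts. DZ cells were slightly lower than LZ cells in CD45.1+ recipients (log2 fold change -0.34, SE 0.10, adjusted p = 0.00399), a call that DESeq2 did not make (adjusted p = 0.108). In CD45.2+ cells the estimate was 0.33 (SE 0.13, adjusted p = 0.051), and without wt replicate 3 it was 0.44 (adjusted p = 0.00118). The difference between the sorts did not pass the adjusted test, in which 0 of 9542 genes were called by edgeR and 2 of the receptors, *S1pr2* and *Cxcr3*, had an unadjusted p under 0.05. By cluster, CD45.1+ cells had 168 ± 23.4 CPM in the LZ2-like and 166 ± 12.1 in the DZ1-like cluster, followed by 123 ± 22.8 in DZ2- and 93.0 ± 16.9 in DZ3-like cells (SD, n = 6). CD45.2+ cells had 140 ± 26.6 in DZ1-, 128 ± 2.29 in DZ2-, 106 ± 21.6 in LZ2- and 103 ± 11.9 CPM in DZ3-like cells (n = 3). In both sorts the DZ3-like cells, which had the highest mean *Cxcr4*, had the lowest mean *S1pr2* of the DZ.

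**Figure D3:**
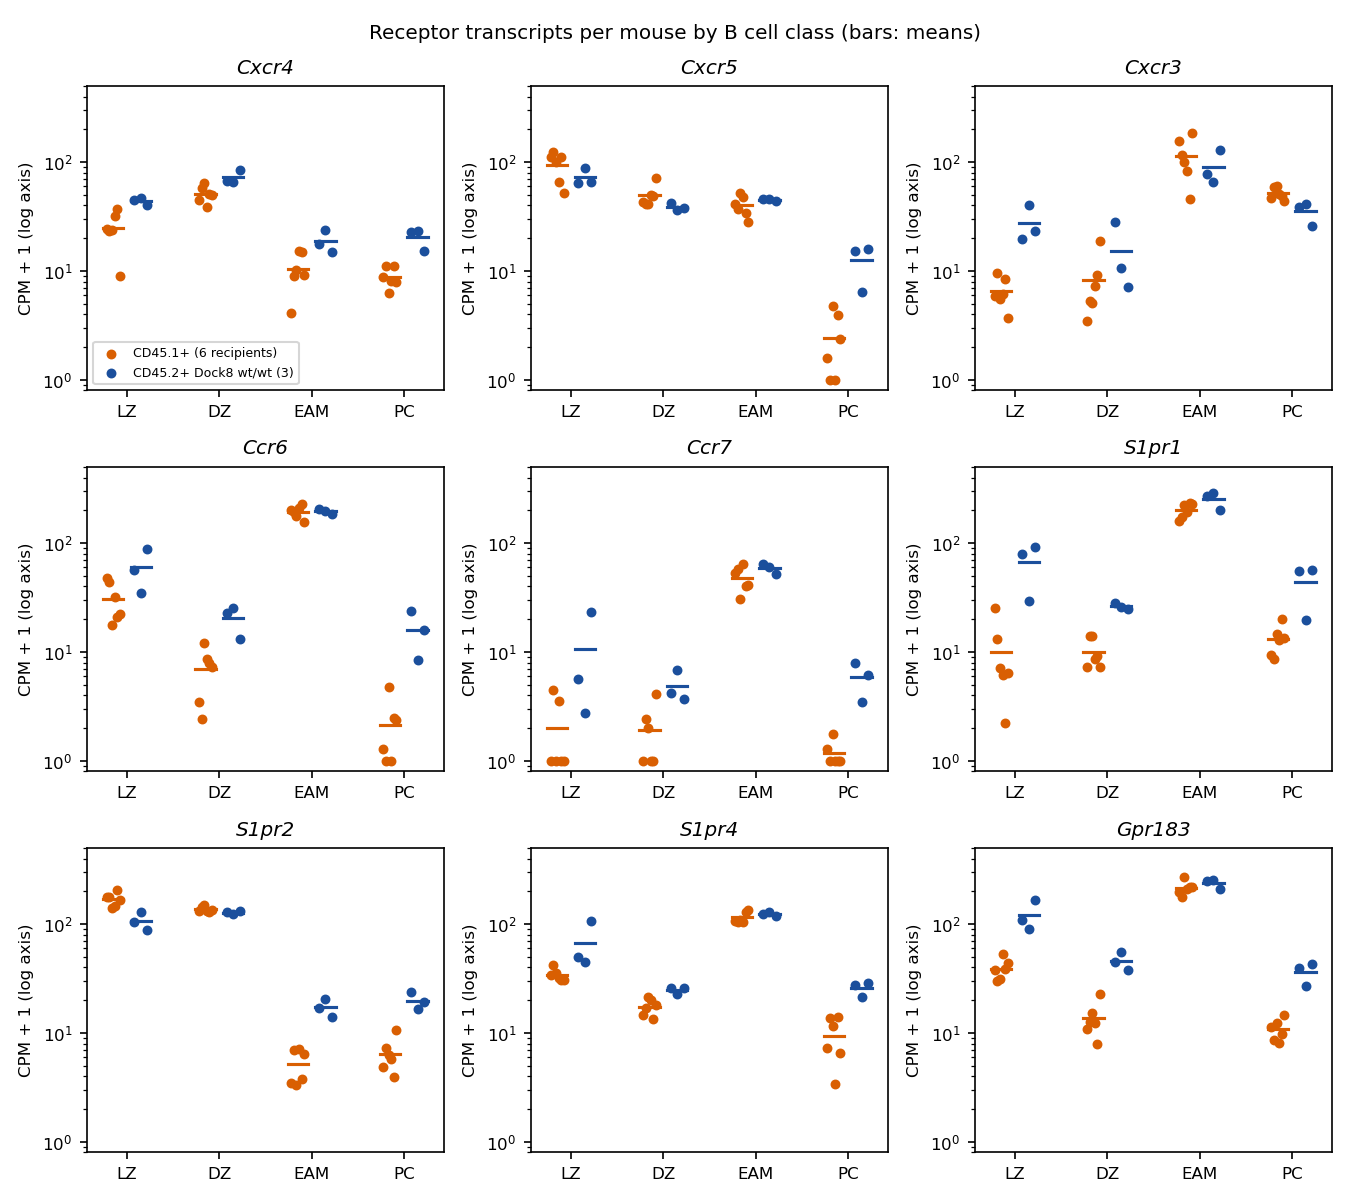
Level of each receptor in the LZ, DZ, EAM and PC cells of each recipient, on a log axis of CPM + 1, for CD45.1+ (6 recipients) and CD45.2+ Dock8 wt/wt cells (3 recipients), with bars for the means. In the *S1pr1* panel the LZ, DZ and PC points of CD45.2+ cells lie mostly above those of CD45.1+ cells, while the EAM points overlap. The *S1pr2* panel shows LZ and DZ cells above EAM cells and PCs in both sorts.

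*S1pr1*, the egress receptor, had its highest level in EAM cells. In CD45.1+ recipients EAM cells had 158, 208 and 231 CPM (lowest, median and highest), against 1.24, 5.71 and 24.5 CPM in the LZ, 6.23, 7.91 and 13.1 in the DZ and 7.62, 12.1 and 18.9 in PCs. EAM exceeded LZ by 4.66 on the log2 scale (SE 0.20, adjusted p = 1.22e-28), and without cpm replicate 1, whose LZ value was the highest, by 5.35. LZ and DZ did not differ by the test (-0.16, SE 0.35, adjusted p = 0.748). CD45.2+ EAM cells had 270, 291 and 201 CPM, LZ cells 91.6, 77.7 and 28.4, DZ cells 25.1, 23.6 and 27.0, and PCs 53.9, 55.2 and 18.5. Here DZ cells were lower than LZ cells (-1.27, SE 0.24, adjusted p = 1.42e-04), and EAM cells were higher by 2.21 (SE 0.20, adjusted p = 1.43e-09). CD45.2+ minus CD45.1+, the EAM against LZ difference was -2.70 (adjusted p = 0.00198). Within EAM the EarlyGC1-like cluster stood highest, at 294 ± 70.9 CPM in CD45.1+ and 326 ± 30.4 in CD45.2+ cells, followed by the EarlyGC2- and Activated/Memory-like clusters. The PC against LZ difference depended on scaling: in CD45.1+ cells it was 1.13 (adjusted p = 0.0016) with TMM and 0.29 (adjusted p = 0.411) without, and in CD45.2+ cells 0.07 (adjusted p = 0.833) and -0.65 (adjusted p = 0.0163).

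*S1pr4*, a further sphingosine-1-phosphate receptor, was like *S1pr1* highest in EAM cells, and in CD45.1+ recipients it was lower in PCs than in LZ cells. CD45.1+ EAM cells ranged from 103 to 135 CPM, LZ cells from 29.4 to 41.2, DZ cells from 12.4 to 20.2 and PCs from 2.37 to 13.1 CPM, with no overlap between EAM, LZ and DZ. DZ was below LZ by -1.05 (SE 0.21, adjusted p = 2.27e-05) and EAM above it by 2.06 (SE 0.15, adjusted p = 1.46e-17). CD45.2+ cells had 123, 127 and 117 CPM in EAM, 106, 49.2 and 44.3 in the LZ, between 21.96 and 25.03 CPM in the DZ and 26.6, 27.5 and 20.3 in PCs (DZ against LZ -1.20, SE 0.20, adjusted p = 2.14e-05). PC was below LZ by -1.16 (SE 0.23, adjusted p = 1.47e-05) in CD45.1+ and by -0.50 (SE 0.20, adjusted p = 0.0415) in CD45.2+ cells. The latter was not called without wt replicate 1 (-0.23, adjusted p = 0.384), without wt replicate 3 (-0.42, adjusted p = 0.0534), without the block (adjusted p = 0.0529), with DESeq2 (adjusted p = 0.0764) or with RLE scaling (adjusted p = 0.0644). The LZ1-like cluster had *S1pr4* of 25.6 ± 10.9 CPM in CD45.1+ (n = 4) and 24.9 ± 7.30 in CD45.2+ cells (n = 3), within the range of GC cells, but *S1pr1* of 94.1 ± 31.6 and 82.9 ± 11.9 CPM.

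*Gpr183*, the oxysterol receptor of the outer follicle, was lowest in DZ cells and PCs. CD45.1+ cells had 6.88, 11.4 and 21.9 CPM in the DZ (lowest, median and highest), 29.2, 37.0 and 51.6 in the LZ, 175, 214 and 269 in EAM and 7.12, 9.56 and 13.8 in PCs. The DZ, LZ and EAM ranges were separate, with DZ against LZ at -1.48 (SE 0.22, adjusted p = 6.45e-08) and EAM against LZ at 2.82 (SE 0.14, adjusted p = 2.27e-25). CD45.2+ cells were at 54.1, 36.8 and 43.8 CPM in the DZ, 166, 108 and 88.6 in the LZ and 250, 254 and 210 in EAM. Those steps were -1.28 (SE 0.16, adjusted p = 1.65e-07) and 1.29 (SE 0.14, adjusted p = 3.01e-08), and the EAM step in CD45.2+ minus that in CD45.1+ cells was -1.69 (adjusted p = 4.76e-04). PCs were lower than LZ cells by -0.996 (SE 0.22, adjusted p = 9.12e-05) in CD45.1+ and by -0.96 (SE 0.16, adjusted p = 1.11e-05) in CD45.2+ cells. The EarlyGC2-like cluster held the most, 276 ± 36.1 and 324 ± 14.9 CPM in the 2 sorts, and the LZ1-like cluster followed at 241 ± 108 and 305 ± 32.7 CPM, within its spread. By the share of cells with a UMI at equal depth, the order of these 2 clusters was the reverse in CD45.2+ cells.

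*Ccr6*, borne by naive and memory B cells, was likewise an EAM and LZ1 transcript. It ranged from 154 to 226 CPM in CD45.1+ EAM cells, from 16.7 to 46.5 in LZ, from 1.44 to 11.1 in DZ and from 0 to 3.78 in PCs, without overlap between EAM, LZ and DZ. The log2 fold changes against LZ were 3.02 (SE 0.16, adjusted p = 2.48e-24) for EAM, -2.29 (SE 0.29, adjusted p = 9.16e-10) for DZ and -3.76 (SE 0.40, adjusted p = 1.98e-12) for PCs. In CD45.2+ cells *Ccr6* stood at 205, 195 and 185 CPM in EAM, 86.6, 56.0 and 33.7 in LZ, 24.4, 12.05 and 21.6 in DZ and 22.6, 15.1 and 7.53 in PCs. The order of the first 3 classes was thus the same, and the PC against LZ difference was higher by 2.38 on the log2 scale than in CD45.1+ cells (adjusted p = 0.0378), where the B cell transcripts given for *Cxcr5* also moved. *Ccr6* was also high in the LZ1-like cluster, with 256 ± 63.3 CPM in CD45.1+ (n = 4) and 204 ± 32.4 in CD45.2+ cells (n = 3), within the spread of the Activated/Memory- and EarlyGC1-like clusters.

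*Ccr7*, which guides B cells to the T cell zone, was higher in EAM cells than in LZ, DZ and PC cells of every recipient with these classes. CD45.1+ EAM cells had 29.9 to 63.8 CPM with a median of 46.4, while 4 of the 6 recipients had no *Ccr7* UMI in LZ cells. In all, 185 UMIs in EAM cells stood against 3 in LZ cells, a ratio per UMI of 59.5 with a counting interval (95%, exact) of 20.1 to 291. CD45.2+ EAM cells had 63.0, 59.1 and 51.5 CPM and LZ cells 22.3, 4.66 and 1.77 (log2 fold change 3.32, SE 0.30, adjusted p = 1.68e-09). Without wt replicate 1, which had the highest LZ level, that value was 4.08. LZ1-like CD45.2+ cells had 28.8 to 37.0 CPM. The EarlyGC1-like cluster led in both sorts, at 88.0 ± 59.4 and 79.0 ± 3.79 CPM. T cell-like cells had 183 ± 30.3 (n = 2) and 126 ± 48.0 CPM (n = 3).

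*Cxcr3*, the receptor for interferon-induced chemokines, was higher in PCs than in LZ cells in both sorts. CD45.1+ PCs had 42.6, 48.9 and 58.9 CPM and EAM cells 44.6, 107 and 184 CPM (lowest, median and highest), against 2.68, 5.03 and 8.59 CPM in LZ cells. Neither overlapped with the LZ, and the log2 fold changes were 3.80 (SE 0.28, adjusted p = 1.98e-18) for PCs and 4.53 (SE 0.26, adjusted p = 1.78e-22) for EAM. CD45.2+ cells had 37.9, 25.1 and 40.1 CPM in PCs and 76.0, 64.1 and 128 in EAM, but also 22.3, 18.7 and 39.0 in the LZ. Their PC against LZ difference was 1.09 (SE 0.24, adjusted p = 4.65e-04), and 0.36 (adjusted p = 0.215) without TMM scaling. The steps from LZ in CD45.2+ minus those in CD45.1+ cells were -2.65 for EAM (adjusted p = 0.0112) and -2.74 for PCs (adjusted p = 0.00126). The EarlyGC2-like cluster, led by *S100a6*, *Ahnak* and *S100a4*, held the most *Cxcr3* in both sorts, 162 ± 76.5 and 142 ± 44.4 CPM, and the EarlyGC1-like cluster had 14.2 ± 14.02 and 56.3 ± 23.9 CPM.

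The comparison of Dock8 genotypes asked whether receptor transcripts of BCL2.Tg CD45.2+ cells differed without DOCK8. In LZ and DZ cells, 0 of the 9 receptors were called by edgeR, 0 by DESeq2, and 0 had an unadjusted p under 0.05, while 1 of 9246 genes (0.0108%) was called. The Dock8 cpm/cpm recipients entered with 23, 16 and 32 cells. Of the cells, 60.9, 68.8 and 62.5% were DZ, against 85.8, 54.4 and 82.1% in Dock8 wt/wt recipients. The pooled levels thus mix different zone shares. *Cxcr4* stood at 106, 129 and 64.5 CPM in Dock8 cpm/cpm against 63.1, 71.6 and 63.4 CPM in Dock8 wt/wt recipients, and the ranges overlapped (log2 fold change 0.40, 95% interval -0.04 to 0.84). *S1pr2* was at 87.9, 152 and 105 against 119, 122 and 127 CPM (-0.21, -0.59 to 0.17), and *Gpr183* at 76.2, 46.9 and 30.5 against 62.7, 58.5 and 48.7 CPM (-0.36, -0.92 to 0.21). The groups overlapped in both. *S1pr1* read 93.8, 35.2 and 23.7 against 30.2, 40.1 and 27.1 CPM (0.39, -0.32 to 1.10), and *Cxcr5* 76.2, 0 and 44.1 against 37.9, 44.7 and 46.2 CPM (-0.17, -0.90 to 0.56). In DZ cells alone *S1pr1* ran the other way. Dock8 cpm/cpm recipients had 0, 7.33 and 25.7 CPM there (lowest, median and highest, from 4 UMIs). Dock8 wt/wt recipients had 23.6, 25.1 and 27.0 CPM, and the ranges overlapped. Over the settings for the pooled comparison, the *S1pr1* log2 fold change ran from -1.70 to 0.84, called in 0 of 20. The narrowest fold interval was that of *S1pr2* (0.666 to 1.12), and *Cxcr3* (0.0934 to 1.44) and *Ccr7* (0.650 to 6.02) had the widest. At this depth a simulated 2-fold change was recovered for 37% and a 4-fold change for 76% of changed genes. Those were drawn at random from all genes tested, so the shares are not those of the receptors. In Dock8 cpm/cpm cells *Cxcr3* rested on 4, *Ccr7* on 6 and *S1pr2* on 72 UMIs.

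CD45.1+ cells of the same recipients, all Dock8 wt/wt, served as the background of the group difference. Of the 7 receptors tested in their LZ and DZ cells, 0 were called by edgeR or DESeq2 and 0 had an unadjusted p under 0.05, with 0 of 8092 genes called (0%). *Cxcr4* had 45.4, 32.3 and 42.5 CPM beside Dock8 cpm/cpm and 35.6, 39.9 and 40.8 beside Dock8 wt/wt cells, and *S1pr2* had 161, 141 and 168 against 135, 140 and 148 CPM. The test of whether the CD45.2+ minus CD45.1+ difference of a mouse depended on the group called 0 of 9 receptors and 0 of 8754 genes (0%) with edgeR, with 1 receptor, *Ccr7*, at an unadjusted p under 0.05. DESeq2 also called 0 receptors in it.

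**Figure D4:**
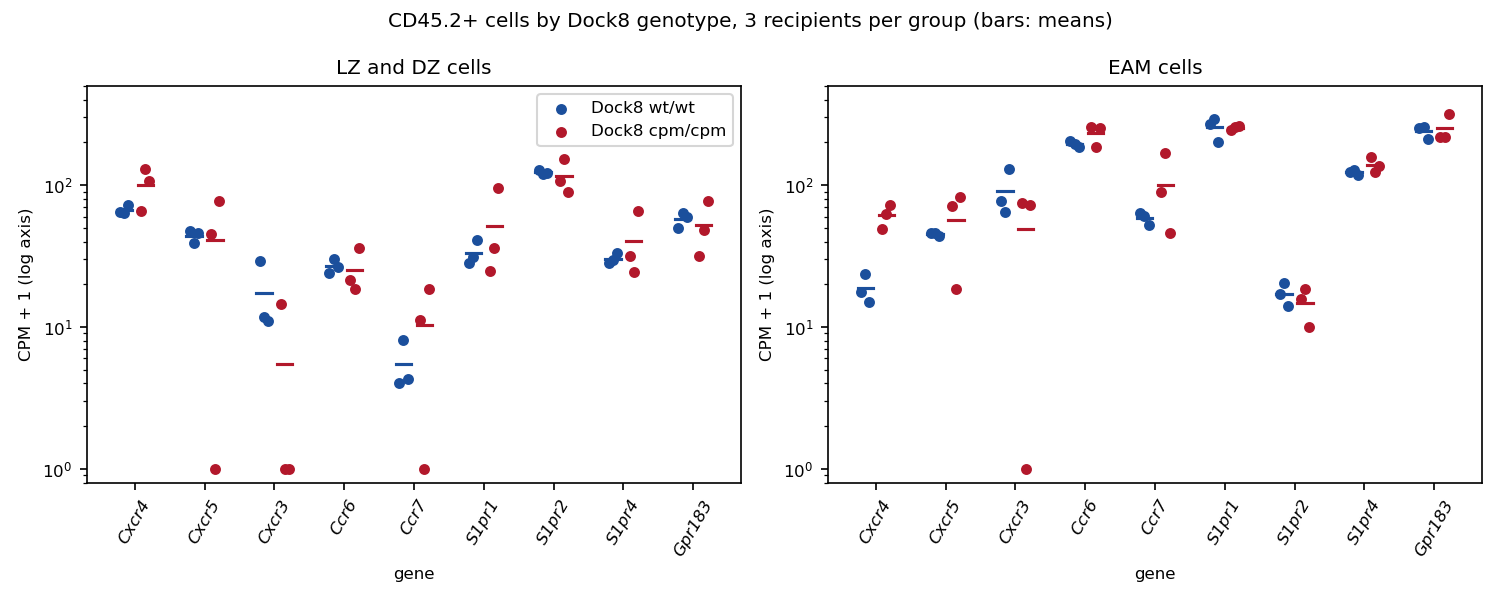
Level of each receptor in CD45.2+ LZ and DZ cells (left) and EAM cells (right) of the 3 Dock8 wt/wt and 3 Dock8 cpm/cpm recipients, on a log axis of CPM + 1, with bars for the means. *Cxcr4* in EAM cells is the receptor whose groups are furthest apart, 47.7 to 71.9 CPM against 13.98 to 22.6 CPM.

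In EAM cells 0 of the 9 receptors were called, with 26 of 8785 genes (0.296%) called, 0.0683% higher and 0.228% lower, and 2 receptors had an unadjusted p under 0.05. DESeq2 called 0 receptors. *Cxcr4* came closest, at 61.3, 71.9 and 47.7 CPM in Dock8 cpm/cpm against 16.5, 22.6 and 13.98 CPM in Dock8 wt/wt recipients. The groups did not overlap, and the log2 fold change was 1.47 (SE 0.35, adjusted p = 0.0521, 95% interval 0.79 to 2.15), but it rested on 28 UMIs in the Dock8 cpm/cpm cells. Its adjusted p was between 0.00557 and 0.0496 in 7 alternatives, among them leaving out each wt replicate, and between 0.243 and 0.285 without any cpm replicate. The makeup of the class moved with the group: EarlyGC1-like cells, whose *Cxcr4* was above that of the whole class in each Dock8 wt/wt recipient, were 89.5, 83.3 and 68.8% of EAM cells in Dock8 cpm/cpm but 46.8, 50.9 and 18.7% in Dock8 wt/wt recipients. Within EarlyGC1-like cells the levels were 41.7, 79.7 and 58.2 against 22, 32.6 and 25.1 CPM, without overlap, and the log2 fold change was 1.05 (SE 0.39, adjusted p = 0.355). The part of the makeup in the *Cxcr4* difference was not tested. *Ccr7* (0.54, 95% interval 0.04 to 1.04, adjusted p = 0.546) and *Cxcr3* (-0.87, -1.72 to -0.02, adjusted p = 0.562) did not pass. The interval of *Cxcr3* excludes 0 only by the normal approximation, since its unadjusted p was not under 0.05. *Ccr6*, *S1pr1*, *S1pr4* and *Gpr183* had fold changes between 0.86 and 1.06. In CD45.1+ EAM cells of the same mice *Cxcr4* was too low to be tested, at 13.9, 8.11 and 8.04 CPM beside Dock8 cpm/cpm and 14.4, 9.19 and 3.11 CPM beside Dock8 wt/wt cells. Of the 7 receptors that were tested there, 0 were called by edgeR or DESeq2, 0 had an unadjusted p under 0.05, and 0 of 4564 genes (0%) were called. CD45.2+ Dock8 cpm/cpm PCs were too few to be compared.

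The 2 sorts were compared within the 3 recipients of Dock8 wt/wt cells, where both are wild-type for *Dock8* and the CD45.2+ cells carry BCL2. In LZ and DZ cells, 5 receptors were higher and 1 was lower in CD45.2+ cells, with 16.3% of 9809 genes called, 8.75% higher and 7.57% lower. *S1pr1* differed most, with 30.2, 40.1 and 27.1 CPM in CD45.2+ and 6.77, 9.61 and 8.05 CPM in CD45.1+ cells of the same mice (log2 fold change 1.961, SE 0.21, adjusted p = 4.12e-18). *Gpr183* followed, at 62.7, 58.5 and 48.7 against 24.5, 20.7 and 24.2 CPM (1.26, SE 0.14, adjusted p = 9.04e-17). *Cxcr4* was at 63.1, 71.6 and 63.4 against 35.6, 39.9 and 40.8 CPM (0.75, SE 0.12, adjusted p = 1.36e-08). *Cxcr5* was lower, at 37.9, 44.7 and 46.2 against 54.2, 69.5 and 87.5 CPM (-0.73, SE 0.11, adjusted p = 1.29e-09). The sorts did not overlap in 7 of the 9 receptors, these 4 among them, and the share of all genes without overlap was not computed. *Ccr6* (0.84, SE 0.19, adjusted p = 1.68e-04) and *Cxcr3* (0.95, SE 0.24, adjusted p = 0.00131) were also higher, the latter not without wt replicate 3 (0.99, adjusted p = 0.108) and not without the block (0.80, adjusted p = 0.343). *S1pr2* (-0.21, adjusted p = 0.054), *S1pr4* (0.26, adjusted p = 0.29) and *Ccr7* (1.23, adjusted p = 0.0986) did not pass, though *Ccr7* reached 2.62 (adjusted p = 0.0168) without wt replicate 3.

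The sorts also differed in the share of DZ among these cells, 85.8, 54.4 and 82.1% in CD45.2+ and 51.5, 31.4 and 55.6% in CD45.1+ cells. In DZ cells alone 5 receptors were called, *Cxcr3* no longer (0.60, adjusted p = 0.247), and *Ccr6* rose to 1.90. In LZ cells alone 5 were called, *Cxcr4* (0.81, adjusted p = 0.0888) and *Cxcr5* (-0.52, adjusted p = 0.116) no longer but *S1pr2* now lower (-0.52, adjusted p = 0.0348), with *S1pr1* at 2.96. DESeq2 called 3 receptors over both zones and gave no adjusted p for *Cxcr3*, *Ccr6* and *S1pr1*. Over all genes, fewer were also called in each of these settings than in the main test, as counted at the end. Plasma cell transcripts moved with the sort: in these recipients 5 plasma cell genes summed to a mean of 1975 CPM (1847 to 2111) in CD45.2+ against 1447 (1384 to 1538) in CD45.1+ LZ cells, and to 2229 (1981 to 2447) against 1534 (1406 to 1613) in DZ cells. Their part in the receptor differences was not tested.

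**Figure D5:**
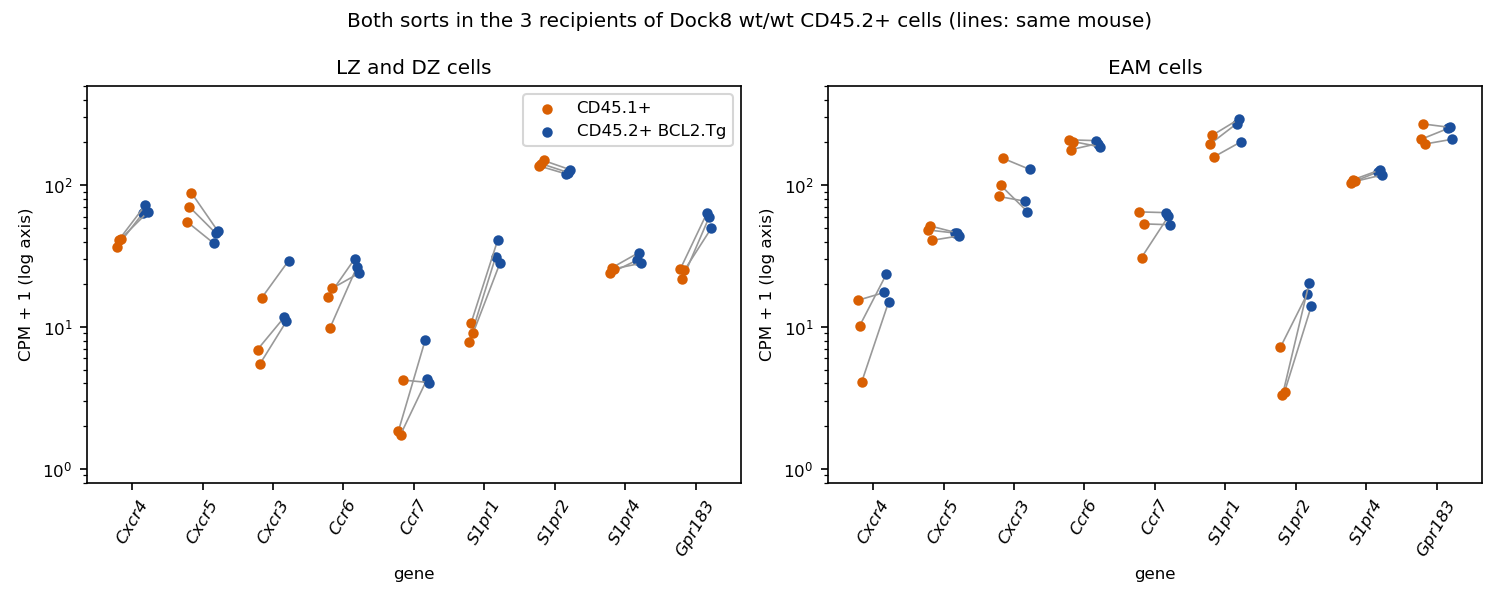
Level of each receptor in LZ and DZ cells (left) and EAM cells (right) of the 3 recipients of Dock8 wt/wt CD45.2+ cells, on a log axis of CPM + 1, with lines joining the CD45.1+ and CD45.2+ cells of a mouse. In LZ and DZ cells all lines rise for *Cxcr4*, *S1pr1* and *Gpr183* and fall for *Cxcr5*, and in EAM cells they rise for *S1pr2*.

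EAM cells of the 2 sorts were closer. Only *S1pr2* was called among the 9, with 4.39% of 9456 genes called, 1.8% higher and 2.59% lower, at 16.1, 19.5 and 13.1 CPM in CD45.2+ and 6.17, 2.30 and 2.49 CPM in CD45.1+ cells (2.11, SE 0.41, adjusted p = 0.00172). It was not called without wt replicate 3 (1.92, adjusted p = 0.0606). DESeq2 called 0 of the receptors but gave no adjusted p for *S1pr2*, so it gives no check of that call. In EarlyGC1-like cells alone 0 were called and *S1pr2* was not tested. *S1pr1* (0.31, SE 0.09, adjusted p = 0.0507), *Cxcr4* (1.18, SE 0.36, adjusted p = 0.0627) and *Cxcr3* (-0.39, SE 0.12, adjusted p = 0.072) did not pass, and *Gpr183* (0.01), *Ccr7* (0.08), *Cxcr5* (-0.09) and *Ccr6* (-0.11) had log2 fold changes near 0. *Cxcr3* turned direction in EarlyGC1-like cells alone (1.67, SE 0.51, adjusted p = 0.0643). Macrophage and monocyte transcripts summed to a mean of 224 CPM (50.4 to 329) in these CD45.1+ EAM cells and 16.9 CPM (10.5 to 24.3) in CD45.2+ EAM cells. Of the 5 genes, *Lyz2* held most of the CD45.1+ sum, while *C1qa* and *C1qb* had no UMI, and their part was not tested.

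Other genes of the same pathways were read from lists of 83 ligands, receptors, G protein regulators, effectors, transcriptional regulators and adhesion molecules. Between DZ and LZ of CD45.1+ cells, 4 of the 51 tested were higher and 27 lower (22.3% and 21.3% of all genes). The median log2 fold change of the 51 was -0.44 against -0.04 over all genes tested. The largest falls were those of *Klf2*, a transcription factor that induces *S1pr1* (-2.01, SE 0.15, adjusted p = 2.48e-18), *Itgb7*, an integrin chain (-1.37, SE 0.35, adjusted p = 0.00105), and *S1pr3* (-1.29, SE 0.18, adjusted p = 1.37e-08). *Rasgrp2* (0.49), the G protein subunit *Gnb1* (0.46) and *Rac1* (0.43) were higher. In CD45.2+ cells 4 of 65 were higher (19.1% of all genes), led by the decoy receptor *Ackr4* (2.15, SE 0.46, adjusted p = 4.82e-04). There 24 were lower (14.1% of all genes), including *Klf2* (-1.53), *Pik3r5* (-1.73, from 18 and 13 UMIs) and *Gpr65* (-1.45), and the median was -0.46 against -0.01. *Klf2* was named in both sorts, whereas *Rasgrp2*, higher in CD45.1+ DZ cells, was lower in CD45.2+ DZ cells (-0.45, adjusted p = 0.00462), a comparison chosen after its values were seen.

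From LZ to EAM, 22 of 51 listed genes were higher and 10 lower in CD45.1+ cells (18.8% and 16.5% of all genes). In CD45.2+ cells 26 of 65 were higher and 10 lower (12.3% and 10.4% of all genes). The medians were 0.24 and 0.27, against -0.03 and 0.03 over all genes. Of the list of G proteins, RGS proteins, kinases and arrestins, 3 were higher and 4 lower of 15 tested in CD45.1+ cells, and 3 higher and 5 lower of 21 in CD45.2+ cells. Among those that fell, *Rgs13*, a GC regulator of chemokine receptor signaling, was at 2.18 ± 3.56 against 247 ± 36.6 CPM in CD45.1+ (SD, n = 6) and at 10.0 ± 3.18 against 176 ± 24.6 CPM in CD45.2+ cells (n = 3), and *Rgs2* and *Rgs10* were lower in both sorts. *Gpr132* and *Ccr1* in CD45.1+ cells, and *Plpp3* and *S1pr5* in CD45.2+ cells, were called higher from 0 to 2 UMIs in LZ cells, so no fold is given. Macrophage and monocyte transcripts moved with these CD45.1+ changes, 5 genes summing to 13.9 to 329 CPM in EAM and 0 to 2.68 CPM in LZ cells, *C1qa* and *C1qb* at 0 in both, and their part was not tested. *Klf2*, chosen here after its values were seen, was at 1079 ± 117 CPM in CD45.1+ EAM and 118 ± 21.5 CPM in LZ cells.

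From LZ to PC, 11 of 51 were higher and 26 lower in CD45.1+ cells (31.8% and 32.7% of all genes). In CD45.2+ cells 15 of 65 were higher and 25 lower (22.2% and 20.9% of all genes). The medians in the 2 sorts were -0.84 and -0.30 against -0.05 and -0.03 over all genes. *Selplg*, the adhesion ligand PSGL-1, was at 82.5 ± 20.1 against 5.37 ± 5.14 CPM in CD45.1+ cells and 76.4 ± 9.01 against 10.6 ± 5.56 CPM in CD45.2+ cells, and *Cd44* rose in CD45.1+ cells by 2.31 (SE 0.15, adjusted p = 1.40e-21). *Rgs13* (2 UMIs in PCs against 919 in LZ cells), *Rgs2* (9 against 728) and *S1pr3* (3 against 234) were lower in CD45.1+ cells, and the same 3 genes were the most reduced in CD45.2+ cells (-3.13, -2.44 and -2.52). Between the sorts in LZ and DZ cells, 9 of 55 were higher and 12 lower in CD45.2+ cells (8.75% and 7.57% of all genes). *Rgs18* (2.65, SE 0.33, adjusted p = 1.09e-13) was among the former, and *S1pr3* (-0.72), *Rgs13* (-0.63) and *Ric8a* (-0.58) led the latter, and *Gpr132* was called higher from 3 UMIs in CD45.1+ cells. Dock8 genotype called 0 of 53 listed genes in LZ and DZ cells (0.0108% of all genes) and 0 of 60 in EAM cells (0.296%) with edgeR.

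Some genes had profiles close to a receptor's over the 30 cluster profiles, among 5131 genes reaching 50 CPM in a profile. *S1pr1* was closest to *Klf3* (r = 0.98), a KLF family member, then to *Esyt1* (0.94) and *Cd55* (0.93), and *Ccr7* was closest to *Irf2bpl* (0.94), *Tent5a* (0.93) and *Klf3* (0.93). *S1pr2* was closest to *Pdzd2* (0.96), *Rgs13* (0.96), which is in the lists above, and *Mybl1* (0.96), *Ccr6* to *Fam43a* (0.98), *Cd38* (0.97) and *Plbd1* (0.97), and *Cxcr5* to *Gmip* (0.95), *Il4ra* (0.95) and *Sh2b3* (0.94). *Gpr183* was closest to *Mndal* (0.95), *Gimap4* (0.94) and *Ifi203* (0.94) and *S1pr4* to *Add3* (0.96), *Arhgef3* (0.94) and *Rasa3* (0.94). *Cxcr3* was closest to *Rcn3* (0.92), *Stoml1* (0.85) and *S100a10* (0.85), and *Cxcr4* to *Fmr1* (0.90), *Mtf2* (0.90) and *Msl3* (0.90).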

How the data were processed

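Spleen B cells from 6 recipient mice were profiled in 2 sorts by droplet 3' RNA sequencing with hashtag libraries. The deposited values are UMI counts per gene or hashtag and cell barcode, which the authors made with Cell Ranger 5.0.1 on mm10, and the deposited hashtag table gives the mouse of each antibody. All deposited per-sample columns were used.

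Cells were assigned to mice with HTODemux (Seurat 5.3.0, CLR over each hashtag, quantile 0.99), which removed hashtag doublets. Of 24241 CD45.2+ mRNA barcodes, 14617 were also in the hashtag matrix, and of these 8048 were called doublets and 6569 singlets. For CD45.1+ cells 4857 of 5232 were in both, with 1562 doublets and 3294 singlets. The alternative 3-fold hashtag rule gave 8941 and 4554 singlets. The part of this imbalance in the differences between sorts was not tested. Scrublet marked 4 cells in each library and was not relied on. Cells under 10% mitochondrial counts with 100 to 5500 genes were clustered (SCTransform, 30 components, Louvain resolution 0.9) without the 9 receptors, the pathway lists and sex-linked genes. Clusters were named from the marker lists of the study, with a naming rule made once the clusters were known.

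Counts were summed per mouse, sort and class where at least 10 cells were present, and tested with edgeR 4.0.16 (quasi-likelihood, TMM, filterByExpr, Benjamini-Hochberg over all genes tested, threshold 0.05). SE is the log2 fold change over the root of F, and 95% intervals use the normal approximation. With few mice these intervals are narrower than the F test allows, and 1 can exclude 0 where the unadjusted p does not pass. Classes of a sort were fitted together, and state and sort comparisons had the recipient mouse as block, since both sorts and all classes come from the same animals. The Dock8 comparison fitted its 2 groups without a block. Adjusted p-values in the text are from edgeR unless DESeq2 (1.42.0) is named. On simulated counts, 2-fold changes were recovered for 83% of genes in DZ against LZ of CD45.1+ cells (7695 genes) and for 82% between sorts in GC cells (9809 genes). Per-cell shares were taken after thinning to 2000 UMIs. Intervals on counts cover counting error only. Of the pathway lists, at most the 3 genes with the largest called change per direction and comparison are named, and each receptor is given its 3 most similar genes by log2(CPM + 10) profiles. Some genes are not reported here. The receptors and gene lists were chosen with earlier results of these data known. Alternatives changed the hashtag rule, cell filter, resolution, clustering genes, doublet removal, scaling, low-count filter, tool, block and mice included.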

Additional observations from a re-analysis of the deposited data

Results flagged for a closer look

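Among 36 groups of 6 recipients, where chance gives about 1 outlying value in 20 groups, 2 stood out, both in CD45.1+ DZ cells of wt replicate 3. *Cxcr5* was 71.1 CPM there against a median of 45.3 over the recipients, and *Cxcr3* was 17.96 CPM against a median of 5.32.

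The differences of EAM or PC cells from LZ cells were not the same in both sorts for 8 results, by a state-by-sort interaction in edgeR over the 3 recipients of Dock8 wt/wt cells, which was added after the values were seen. From LZ to EAM, where 0.608% of 9542 genes were called, CD45.2+ minus CD45.1+ was -2.65 for *Cxcr3*, -2.70 for *S1pr1*, -1.69 for *Gpr183* and 2.79 for *S1pr2* on the log2 scale. From LZ to PC, where 8.58% of 9542 genes were called, it was 3.21 for *Cxcr5*, 2.38 for *Ccr6*, 2.58 for *S1pr2* and -2.74 for *Cxcr3*. In each of these the change from LZ had the same direction in both sorts and was smaller in CD45.2+ cells. Sort, library and BCL2 transgene cannot be told apart in these values.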

How the results depend on the processing

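Over the alternatives, 1756 of 1906 values of single receptors and 205 of 225 counts of called receptors kept their direction and their side of the threshold or stayed close to the main value. In EAM cells of Dock8 cpm/cpm against wt/wt recipients, the count of called receptors went from 0 to 1, *Cxcr4*, with a stricter cell filter, with all variable genes in the clustering, without TMM scaling and without a low-count filter, and lay between 0 and 1 without single mice. Between sorts in EAM cells the count of 1 became 4 under the 3-fold hashtag rule, 3 without TMM scaling and without a low-count filter, 2 with CLR over each cell, the stricter filter, resolution 0.6, resolution 1.2 and removal of high Scrublet scores, and 0 in EarlyGC1-like cells alone, with 0 to 2 without single mice. From LZ to PC in CD45.1+ cells, 8 called receptors became 5 with CLR over each cell. In CD45.2+ cells the PC against LZ value turned to -0.85 for *Ccr7* and to -0.68 for *S1pr1* with CLR over each cell, and to -0.65 for *S1pr1* without TMM scaling, from main values of 0.20 and 0.07 that were not called. The causes were not tested.

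Without the replicate block, the counts of called receptors were 5 between sorts in GC cells and 1 in EAM cells, 6, 9 and 8 for DZ, EAM and PC against LZ in CD45.1+ cells, 6, 8 and 5 in CD45.2+ cells, and 0 for the interaction of sort and group. With all 4 groups fitted and no replicate block, 0 receptors were called between Dock8 groups in either class.

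Over all genes, the count between sorts in GC cells fell from 1601 to 524 with DESeq2, 598 without the block, 605 in DZ and 243 in LZ cells alone, and 949 without wt replicate 3. In EAM cells it fell from 415 to 233 with DESeq2, 192 without the block, 79 in EarlyGC1-like cells, 221 without wt replicate 1 and 261 without wt replicate 3. Between Dock8 groups in EAM cells it ranged from 0 (without cpm replicate 1) to 112 (without wt replicate 3), around a main count of 26, and was 98 with DESeq2 and 108 without a low-count filter, while in GC cells it ranged from 0 to 4 around 1. With CLR over each cell the CD45.1+ counts fell from 3361 to 1781 for DZ and from 2713 to 1669 for EAM against LZ, and without wt replicate 2 the CD45.2+ counts fell from 3579 to 1616, from 2442 to 1200 and from 4637 to 2968. CD45.1+ EAM cells could not be fitted between groups with CLR over each cell. The 23, 16 and 32 GC cells of Dock8 cpm/cpm recipients limit the genotype comparison.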
